A study of Mus musculus with 16 samples.

Results

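Keratins are the intermediate filament proteins of epithelial cells, and 54 mouse genes whose symbol is Krt followed by a number were measured here, out of 53464 Ensembl genes in the deposited count table. Membership was set by the symbol alone, and the members named with values below were picked in part by their level, call or change. They were split into 28 type I (acidic) and 26 type II (basic) genes, and into 21 epidermal, 24 hair, 6 simple-epithelial and 3 unclassed genes. Apart from Krt18, the type I genes lay in 1 cluster of 27 genes on mouse chromosome 11 (GRCm38, chr11:99232761-100269871), and all 26 type II genes lay with Krt18 on chr15:101347444-102032027. The annotation lists every member as protein coding except Krt74, a transcribed unitary pseudogene. The RNA came from medullary thymic epithelial cells (mTEC), the cells that display a broad sample of the body's proteins to developing T cells.

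The 16 RNA-seq libraries came from 8 individual mice, each of which gave a mature and an immature mTEC library. The cells were sorted from the thymus of C57BL/6 mice of 4 to 6 weeks, by the labels (the study's methods give mixed 129S2/Sv and C57BL/6J parentage), as CD45- EpCAM+ Ly51- UEA+ cells with high (mature) or low (immature) MHCII, with 10000 cells a library by the labels. All 8 mice carried loxP-flanked alleles: 4 were Rbfox1 lox/lox and 4 were Rbfox2 lox/lox, 2 lines named by the floxed RNA-binding protein gene. In each line 2 control mice had Foxn1 wildtype/wildtype and 2 tKO mice had Foxn1 wildtype/cre, a Cre expressed from the Foxn1 locus that deletes the floxed gene in thymic epithelium. Each such group of 2 mice held a female and a male. Since the controls lack Cre, the presence of Cre and the loss of Rbfox1 or Rbfox2 cannot be told apart in a comparison of tKO with control mice.

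Keratin filaments form from type I and type II chains in equal amounts, and each epithelium uses its own pairs. Basal cells of stratified epithelia use Krt5 with Krt14, simple epithelia use Krt8 with Krt18, suprabasal epidermis uses Krt1 with Krt10, mucosal lining uses Krt4 with Krt13, and activated or appendage cells use Krt6 with Krt16 and Krt17. Hair keratins are made in the root sheath and shaft of the hair follicle. In the thymus, Krt5 and Krt14 are known as stains of the medulla and Krt8 and Krt18 as stains of the cortex and of some medullary cells, and mature mTEC are known for promiscuous expression of genes that belong to other tissues.

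Library totals were 3737884 to 4636367 counts in mature and 1506134 to 2430287 in immature mTEC, so depth went with population. The sort was visible in the genes that mark the populations. Of 14 mTEC identity genes, 5 were called higher and 5 lower in mature control mTEC (calls are defined below), where 26.8% and 11.1% of all rows were. Fitted log2 fold changes over the list ran from −4.41 to 5.10. The antigen regulator Aire (log2 fold change 3.27) and the co-stimulatory genes Cd80 (3.63) and Cd86 (5.10) were among the higher ones. Among the lower ones were Pdpn (fell by 3.19) and Ly6a (fell by 1.78). The lowest value, −4.41, belongs to neither of these. For the chemokine Ccl21a, a multi-copy gene, the row read for its level was at 0 in all mature libraries. It was at 0 to 5 counts in the immature ones, too few to show the immature state. Such counts cannot pass the filter on low counts, yet 14 of 14 genes of the list were tested. The row tested for Ccl21a may thus be another one. Rbfox2 in mature mTEC was 9.56 and 16.2 CPM (counts scaled to a common library total) in Rbfox2 tKO mice against 58.1 and 57.1 in their controls, and in immature mTEC 37.8 and 23.6 against 106 and 94.5. Rbfox1 in mature mTEC was 34.1 and 29.9 CPM in Rbfox1 tKO mice against 52.6 and 48.6, but in immature mTEC it was 152 and 154 against 164 and 160.4, so gene-level counts differed little there. Reads outside the floxed exons still count toward these genes.

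Promoter pieces from RefSeq (GRCm38.p6) show where the genes described most begin: 3 root sheath keratins near 0 in immature mTEC (Krt25, Krt71 and Krt73), the basal Krt5, and the simple partners Krt8 and Krt18. Each is the 100 bases before the gene's start, on the gene's strand. Capitals mark TATAAA, or ATAAA alone, on the gene strand with all its bases 40 to 20 bases before the start.
Krt25, chr11:99322952-99323051, minus strand: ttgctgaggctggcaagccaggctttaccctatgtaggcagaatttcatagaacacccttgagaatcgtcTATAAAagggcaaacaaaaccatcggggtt
Krt71, chr15:101743098-101743197, minus strand: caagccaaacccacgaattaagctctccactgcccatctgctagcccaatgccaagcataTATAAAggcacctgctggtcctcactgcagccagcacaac
Krt73, chr15:101802361-101802460, minus strand: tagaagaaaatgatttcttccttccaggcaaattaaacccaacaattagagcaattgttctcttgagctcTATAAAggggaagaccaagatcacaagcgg
Krt5, chr15:101712906-101713005, minus strand: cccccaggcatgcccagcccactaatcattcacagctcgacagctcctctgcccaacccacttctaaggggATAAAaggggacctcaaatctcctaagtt
Krt8, chr15:102004343-102004442, minus strand: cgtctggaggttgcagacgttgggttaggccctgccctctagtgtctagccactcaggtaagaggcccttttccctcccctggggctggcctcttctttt
Krt18, chr15:102028116-102028215, plus strand: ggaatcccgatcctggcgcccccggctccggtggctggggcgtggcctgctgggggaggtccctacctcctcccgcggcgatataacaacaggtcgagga

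Every one of the 54 keratin genes, hair keratins and the pseudogene included, had at least 1 count in each of the 8 mature libraries, while 26 did so in each of the 8 immature ones. Brought to the smallest library total (1506134 counts), the expected number with a count was 52.1 ± 0.447 (SD, n = 8 mice) in mature and 35.5 ± 1.31 in immature mTEC, and for hair keratins 22.5 ± 0.468 and 8.75 ± 1.17 of 24. Krt26, Krt28, Krt39, Krt40 and Krt72 had 0 counts in all immature libraries, which allows up to 3 counts over these libraries together. The whole family took less of the RNA in mature mTEC, 0.682% ± 0.054 of counts against 1.31% ± 0.118 in immature mTEC. Mature mTEC thus had more keratin genes with reads and a smaller share of keratin RNA. The number of all genes with reads was not compared in this way. Of 19502 rows with at least 10 counts in a library, 29.6% lay above and 14.5% below in every mature library. More genes with reads is thus not shown to be particular to keratins. These are bulk libraries, in which fewer cells of a type and less RNA per cell cannot be told apart.

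**Figure D1:**
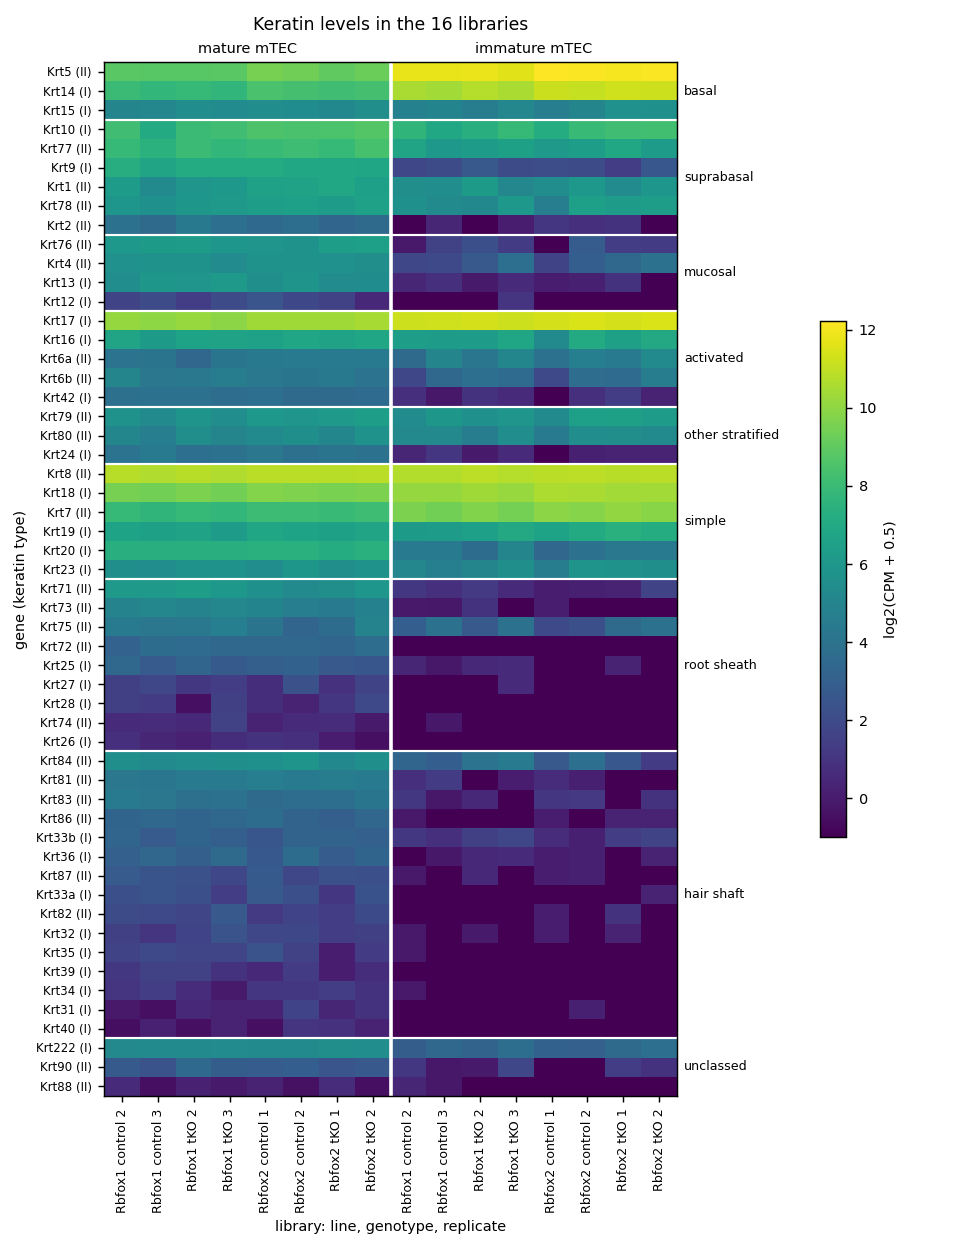
Heat map of the 54 keratins (rows, with type, grouped by class) in the 16 libraries (columns, 8 mature then 8 immature), coloured by log2(CPM + 0.5). The hair and mucosal genes show in the mature columns and are dark in most immature ones, while Krt5 and Krt14 are brightest in the immature columns.

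The family was led by different genes in the 2 populations. Levels of different genes were compared per kilobase of exon (CPM per kb, mean ± SD over 8 mice). In immature mTEC the order was Krt5 (1824 ± 276), Krt17 (1698 ± 121), Krt14 (1094 ± 258), Krt8 (921 ± 58.15), Krt18 (913 ± 111), Krt7 (123 ± 19.2), Krt10 (99.6 ± 31.9) and Krt19 (61.55 ± 19.2). The mean difference between neighbours was within 1 SD for Krt5 and Krt17, for Krt14 and Krt8, for Krt8 and Krt18, and for Krt7 and Krt10. In mature mTEC the order was Krt8 (903 ± 51.7), Krt17 (776 ± 102), Krt18 (534 ± 46.4), Krt5 (244 ± 49.97), Krt14 (156 ± 29.96), Krt10 (144.5 ± 40.3), Krt77 (84.5 ± 16.6) and Krt20 (84.05 ± 4.09), with Krt14 and Krt10, and Krt77 and Krt20, within 1 SD of each other. The simple-epithelial Krt8 thus stood first in mature mTEC, where the basal pair stood after Krt17 and Krt18. The level of Krt7 depends on the gene length used and was 212.3 in immature mTEC with its longest transcript alone.

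As shares of keratin counts, the basal genes took 44.1% ± 2.63 in immature and 12.5% ± 1.38 in mature mTEC, and the simple genes 31.0% ± 1.29 and 45.9% ± 1.87. The suprabasal genes took 3.05% ± 0.642 and 12.5% ± 1.54, the mucosal genes 0.0832% ± 0.0436 and 2.67% ± 0.393, and the hair genes 0.213% ± 0.0828 and 3.97% ± 0.670. The ranges overlapped for the activated genes (20.7% ± 1.52 and 20.04% ± 0.869) and for the type I genes (47.6% ± 0.912 and 48.9% ± 0.597). The keratin total was itself 1.31% of all counts in immature and 0.682% in mature mTEC. A larger or like share of it is thus not a higher or like level.

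Comparison of mature with immature mTEC of the 4 control mice asked which keratins move with maturation. A gene was called when edgeR's quasi-likelihood test gave a Benjamini-Hochberg adjusted p under 0.05 over all tested genes and the fold was over 2 (log2 fold change over 1 in size). Of the 54 keratins 45 passed the filter on low counts, and 29 were called higher and 4 lower in mature mTEC, against 26.8% higher and 11.1% lower of all 16750 rows tested. The count of higher genes is not evidence by itself, because 21 of the 29 had under 10 counts in every immature control library. They passed the filter through the mature ones, so the filter favoured genes that differ. Of the 24 keratins with an immature library at 10 counts or more, 8 were called higher, 4 lower and 12 neither. Over all 8 mice, 51 of the 54 members had at least 10 counts in a library, and of these 31 lay above and 5 below in every mature library, without overlap with the immature ones. Of the 19502 rows of the table that met the same minimum, 29.6% lay above and 14.5% below.

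The 4 keratins that fell were the basal pair Krt5 and Krt14, the appendage and wound keratin Krt17, and the simple keratin Krt7, of ducts and glands. Krt5 was 3217, 3944 and 4813 CPM (lowest, median and highest of 8 mice) in immature mTEC and 437, 482 and 724 in mature mTEC. Krt14 was 1362, 1947 and 2437 CPM in immature and 210.4, 273 and 349 in mature mTEC. None of the 8 mature libraries reached the lowest immature library for either gene. In control mice Krt5 changed by −2.87 on the log2 scale (SE 0.06, adjusted p = 3.18e-17) and Krt14 by −2.66 (SE 0.07, adjusted p = 3.30e-16). Krt17 was 2388, 2666 and 2892 CPM in immature and 987, 1225 and 1429 in mature mTEC, and fell by 1.14 on the log2 scale in control mice (SE 0.06, adjusted p = 1.83e-12), a call near the 2-fold threshold that was lost, at −0.98, where every library had to hold 10 counts. Krt7 was 689, 873.5 and 1082 CPM against 199.8, 243 and 275, a log2 fold change of −1.79 (SE 0.07, adjusted p = 7.91e-14).

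The simple pair Krt8 and Krt18 parted. Krt8 was 1643, 1839 and 1929 CPM in immature and 1599, 1818 and 1853 CPM in mature mTEC, ranges that overlap almost wholly. Within mice it was higher in mature mTEC in 1 of 8. Its log2 fold change in control mice was −0.0041 (SE 0.05, adjusted p = 0.950). Its sign was not settled: it was 0.0501 with DESeq2 (adjusted p = 0.533), and 0.158 where every library had to hold 10 counts (edgeR adjusted p = 0.0107), below 2-fold in both. Krt18 was 1132, 1328 and 1563 CPM in immature and 681, 769 and 887 in mature mTEC without overlap, and its log2 fold change of −0.76 (SE 0.06, adjusted p = 8.85e-10) was below the 2-fold threshold. Of the Krt8 transcript, 23.5% of 75-base windows also occur in other annotated genes, among them the pseudogene Krt8-ps, so part of its reads may have been dropped or assigned elsewhere.

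**Figure D2:**
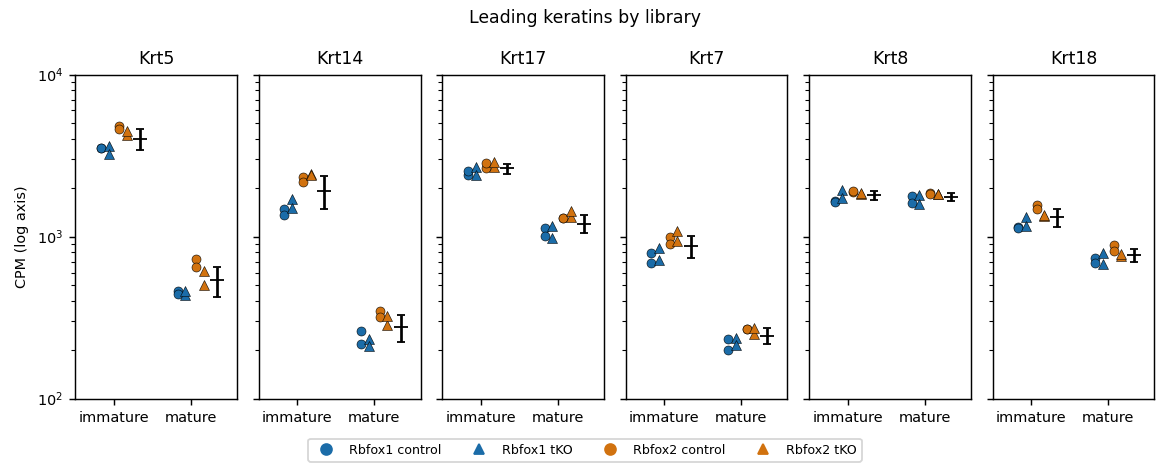
CPM on a log axis of Krt5, Krt14, Krt17, Krt7, Krt8 and Krt18 in immature and mature mTEC, with 1 point per mouse (colour for line, shape for genotype) and beside them the mean ± SD of 8 mice. Krt5 and Krt14 lie far lower in every mature library, Krt8 overlaps between the populations and Krt18 is lower in mature mTEC without overlap.

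The simple pair was then compared within each mouse, as the log2 ratio of the type II to the type I count. Krt8 over Krt18 rose from 0.465 ± 0.104 in immature to 1.21 ± 0.066 in mature mTEC, a mean difference of 0.742 ± 0.068 (SD, n = 8, exact sign-flip permutation test, two-sided, p = 0.0078125, the smallest that 8 mice allow, adjusted p = 0.03125 over 4 pairs), higher in 8 of 8 mice and between 0.653 and 0.822 in each. For the basal partners, Krt5 over Krt14 was 1.08 ± 0.175 and 0.961 ± 0.114, a difference of −0.120 ± 0.173 (exact permutation p = 0.117, adjusted p = 0.156). Krt1 over Krt10 differed by 0.071 ± 0.681 (exact permutation p = 0.781, adjusted p = 0.781), with mice on both sides of 0. Krt6a over Krt16 differed by −0.556 ± 0.458 (exact permutation p = 0.03125, adjusted p = 0.0625), lower in 6 of 8 mice, and 50.7% of Krt6a windows and 28.9% of Krt16 windows are shared with other genes. Krt4 over Krt13 differed by −2.87 ± 1.44 in a value with no test, since Krt13 had 0 to 3 counts in immature libraries. A ratio within a library shows unequal change of the 2 genes, and says nothing of the protein filaments.

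**Figure D3:**
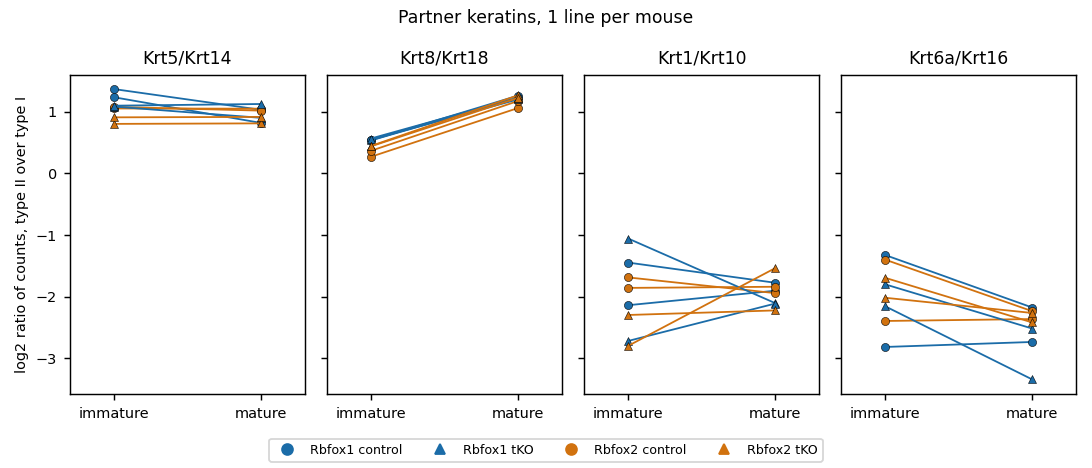
Log2 ratio of type II to type I counts for the 4 tested partner pairs, with a line for each of the 8 mice from immature to mature mTEC (colour for line, shape for genotype). Krt8 over Krt18 rises in 8 of 8 mice, and Krt5 over Krt14 and Krt1 over Krt10 go either way.

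Mucosal and palmoplantar keratins rose from very low levels. Krt13, the partner of Krt4 in oral and oesophageal lining, was 0, 0.731 and 1.40 CPM in immature and 41.0, 52.7 and 72.3 in mature mTEC. In control mice its log2 fold change was 6.02 (SE 0.29, adjusted p = 1.48e-12). Krt4 was 2.72, 6.64 and 15.3 CPM against 41.0, 52.2 and 55.7, a log2 fold change of 3.76 (SE 0.19, adjusted p = 3.43e-12). Krt76 of the hard palate was 0, 2.09 and 6.62 CPM against 55.6, 69.5 and 86.9, a log2 fold change of 4.85 (SE 0.30, adjusted p = 5.47e-11). Krt9, the keratin of thickened skin on palm and sole, was 2.101, 3.65 and 6.05 CPM against 105, 131 and 150.6, a log2 fold change of 5.17 (SE 0.19, adjusted p = 4.20e-14). None of these genes overlapped between the populations in any of the 8 mice. All 4 mucosal genes of the list (Krt4, Krt12, Krt13 and Krt76) were called higher in control mice, where 26.8% of all rows were. Krt12 and Krt13, like Krt9, had under 10 counts in every immature control library and were tested through the mature ones. The filter thus favoured a difference in these genes, and their p adds nothing.

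The suprabasal and activated keratins did not move as a block. The suprabasal list gave 3 higher genes of 6, where 26.8% of all rows were higher. Among them was Krt77 (65.2 to 117 CPM in immature and 172 to 336 in mature mTEC, log2 fold change 1.53, SE 0.12, adjusted p = 2.76e-09). The others were Krt9 and Krt2, which had under 10 counts in every immature control library, so the filter favoured a difference. Krt10, the differentiation keratin of epidermis, was 121, 216 and 304.5 CPM in immature and 136, 318 and 408 in mature mTEC. Within mice it was higher in mature mTEC in 8 of 8. Krt1 had a like difference, higher in 6 of 8 mice. The log2 fold changes of Krt10 and Krt1 in control mice were 0.66 (SE 0.19, adjusted p = 0.00442) and 0.60 (SE 0.16, adjusted p = 0.00326), both below 2-fold. Krt16 and Krt6a, raised in wounded epidermis, had log2 fold changes of 0.18 (SE 0.20, adjusted p = 0.449) and −0.21 (SE 0.23, adjusted p = 0.428), and Krt19 one of 0.11 (SE 0.09, adjusted p = 0.295). Of the 5 activated genes 2 were called higher, Krt6b (1.56) and Krt42, and 1 lower, where 26.8% and 11.1% of all rows were. Fitted log2 fold changes of the 5 ran from −1.14 to 4.21. Krt42 had under 10 counts in every immature control library, so the filter favoured a difference. Krt75, counted with the root sheath keratins (1.31), was also called higher. Krt20, the simple keratin of intestinal and urothelial lining and of Merkel cells, was 9.80, 19.9 and 31.8 CPM in immature and 147, 165 and 169 in mature mTEC. Its log2 fold change was 3.34 (SE 0.11, adjusted p = 4.92e-15), and of the 6 simple keratins it alone was called higher and Krt7 alone lower.

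Most hair keratins were at or near 0 in immature mTEC. Of 24, 16 passed the filter and all 16 were called higher, 6 of the root sheath and 10 of the shaft, where 26.8% of all rows were. Of the 16, 14 were tested through the mature libraries alone, which favours a difference, so the count is not evidence by itself. Krt73, an inner root sheath keratin, had 139, 159, 129, 100, 134, 147, 80 and 118 counts in the mature libraries and 1, 1, 1, 0, 3, 0, 0 and 0 in the immature libraries of the same mice. In control mice its summed counts were 527 against 3, a ratio of 81.8 for equal depth (95% interval 27.8 to 398, covering counting error only). Krt72, also of the inner root sheath, had 40, 56, 43, 42, 54, 43, 35 and 56 counts in mature libraries and 0 in all immature ones, and was at least 28.1-fold higher in control mice, taking 3 counts over the group as the floor. Krt71, also of the inner root sheath, was 39.5, 64.1 and 84.9 CPM in mature and 0.544, 1.13 and 2.77 in immature mTEC, a log2 fold change of 5.86 (SE 0.24, adjusted p = 1.84e-13). The counts of Krt71 were under 10 in every immature control library, so the filter favoured a difference and the p of Krt71 adds nothing. The shaft keratins Krt33a (at least 13.2-fold higher, 85 against 0 counts) and Krt86 (180 against 2 counts, ratio 41.9, interval 11.4 to 349), the root sheath keratins Krt27 (at least 7.45-fold higher, 48 against 0 counts) and Krt25 (144 against 3 counts, ratio 22.4, interval 7.5 to 110), and the corneal keratin Krt12 (at least 10.1-fold higher, 65 against 0 counts) complete the 10 called keratins with the largest fitted change beside Krt13, Krt9, Krt71, Krt72 and Krt73. Among hair genes seen in both populations, Krt84, a hair-type keratin also known from the tongue, had a log2 fold change of 2.40 (SE 0.18, adjusted p = 1.14e-09). Krt81, Krt86 and Krt34 share 35.5%, 33.5% and 24.7% of their windows with other genes, and 35.6% of the Krt12 windows also lie in an antisense gene, so the counting may not keep these apart.

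**Figure D4:**
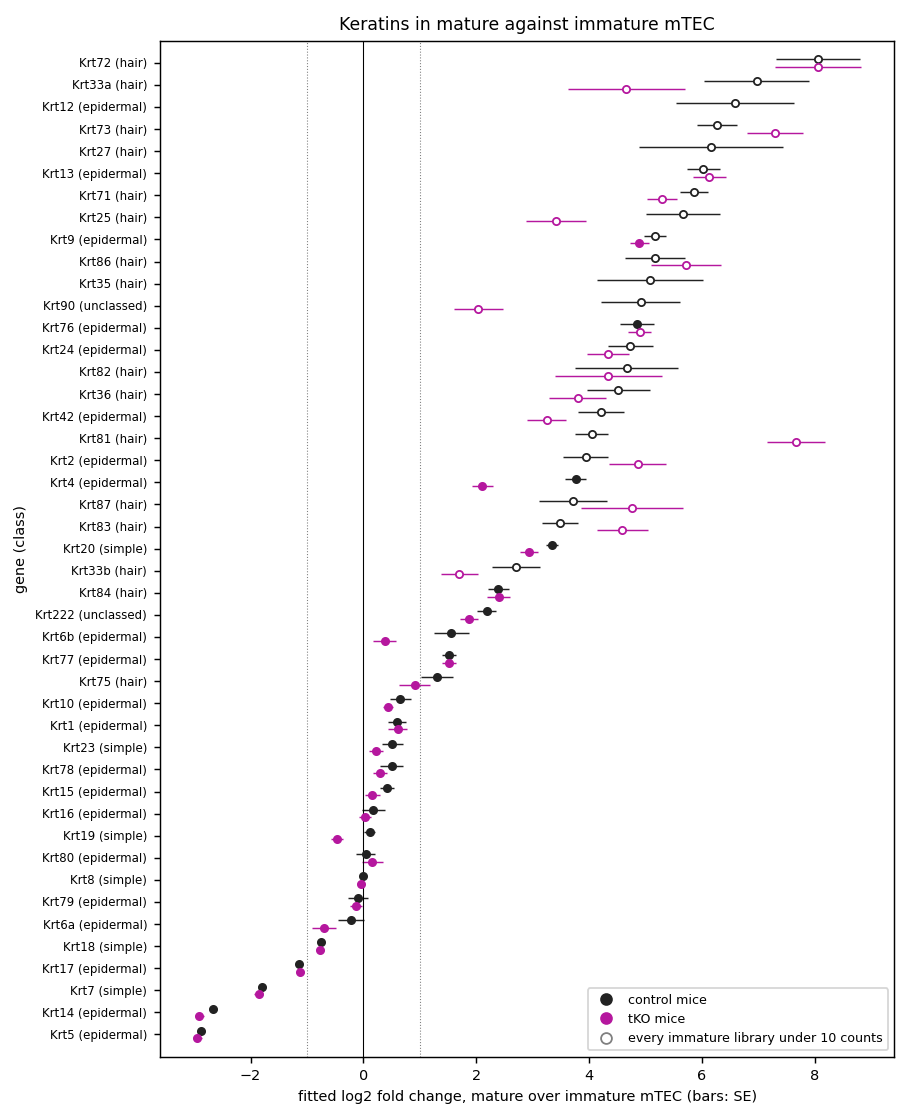
Fitted log2 fold change (horizontal axis, bars for the SE) of each tested keratin, mature against immature mTEC, in control (black) and tKO mice (purple), ordered by the control value. Open points had under 10 counts in every immature library, so their fitted values are not bounds, and dotted lines mark 2-fold; Krt5, Krt14, Krt7 and Krt17 lie below −1 in both genotypes.

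The remaining members are given by their range. Krt222, Krt24, Krt36, Krt87, Krt35, Krt90, Krt82, Krt42, Krt33b, Krt2, Krt83 and Krt81 were called higher, with fitted log2 fold changes from 2.19 (Krt222) to 5.08 (Krt35), and all but Krt222 had under 10 counts in every immature control library. Krt23 (0.51), Krt78 (0.50), Krt15 (0.42), Krt80 (0.04) and Krt79 (−0.10) were not called. The 9 untested members were Krt26, Krt28, Krt31, Krt32, Krt34, Krt39, Krt40, Krt74 and Krt88, with 10 to 44 counts summed over the 4 mature control libraries, the most in Krt32 (44), Krt39 (32) and Krt34 (31).

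The motif marked in the promoter pieces above was counted over the family. Of the 54 keratins 36 had a promoter of 300 bases in the table (250 before and 50 after the start). TATAAA was found on either strand in 52.8% of these and in 13.6% of 32851 promoters of all genes. ATAAA within 40 to 20 bases before the start, on the gene strand (which TATAAA also contains), was in 55.6% of the keratins and 3.78% of all promoters. It was in 12 of 17 hair keratins (70.6%), 6 of 13 epidermal (46.2%) and 2 of 5 simple ones. It was in 10 of 20 keratins called higher, in 1 of 3 called lower and in 3 of 6 tested and not called in mature control mTEC. A match of letters is a description and not a site of binding, and the start used for Krt14 may not be the one in use.

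The same comparison in the 4 tKO mice gave 24 keratins higher and 4 lower of 42 tested, where 26.3% and 11.9% of 16578 rows were higher and lower. These mice share no library with the controls. The 4 lower genes were again Krt5 (−2.94), Krt14 (−2.91), Krt7 (−1.86) and Krt17 (−1.12, or −0.98 and not called where every library had to hold 10 counts), on the log2 scale. Of the keratins called in control mice, Krt75 (0.91) and Krt6b (0.38) were not called in tKO mice, and Krt27, Krt12 and Krt35 were not tested. As in the controls, 18 of the 24 higher genes had under 10 counts in every immature tKO library, so the filter favoured genes that differ. Of the other 24 tested keratins 6 were called higher, 4 lower and 14 neither. Krt8 had a log2 fold change of −0.042 and Krt18 of −0.77.

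A test of the difference of the maturation effect between tKO and control mice in all 16 libraries called 0 of 44 keratins, as it called 0% of 17442 rows (edgeR), and DESeq2 called 0 keratins. At an unadjusted p under 0.05 there were 6 keratins (Krt4, Krt19, Krt81, Krt6b, Krt14 and Krt90), where 5.20% of all rows passed. The mature and immature libraries come from the same mice, and with the mouse as a block 2 keratins passed at an adjusted p under 0.05, where 0.281% of rows did. These were Krt4, whose difference was −1.67 on the log2 scale (SE 0.35 and adjusted p = 0.448 without the block, adjusted p = 0.000835 with it), and Krt19, whose difference was −0.59 (adjusted p = 0.573 without and 0.00177 with the block). Krt4 in immature mTEC was 3.01, 3.28, 2.72 and 7.22 CPM in control and 6.05, 13.9, 10.5 and 15.3 in tKO mice, and in mature mTEC 50.4 to 55.7 against 41.0 to 53.6. The gap was thus in the immature libraries, where 1 control mouse lay above 1 tKO mouse, and the counts were 5 to 27 per library. Krt19 in immature mTEC was 73.2, 75.9, 100.2 and 135 CPM in control and 86.6, 126, 171 and 145 in tKO mice, with overlap. In immature Rbfox2 libraries the summed endothelial markers were 155 to 223 CPM in tKO and 69.8 to 122 in control mice, and the summed fibroblast markers 2229 to 2836 and 1891 to 2226. No fibroblast or endothelial marker was called between tKO and control mice with both lines together, and their part in these keratin differences was not tested.

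The tKO mice were next compared with controls within each population, the question for which the lines were made. No keratin was called in any of the 6 comparisons by edgeR, and none by DESeq2, of 48 keratins tested in mature and 24 in immature mTEC. In Rbfox1 tKO mice 0.0166% of rows were called in mature and 0.0306% in immature mTEC, in Rbfox2 tKO mice 0.0277% and 0.0536%, and with both lines together 0.0166% and 0.0306%. At an unadjusted p under 0.05 there were 3 keratins for Rbfox1 in mature mTEC (3.35% of all rows passed) and 3 in immature mTEC (5.90%), and for Rbfox2 there were 6 (5.34%) and 7 (6.25%). With both lines together there were 2 in mature (4.49%) and 6 in immature mTEC (7.47%).

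None of the keratins with the lowest p passed the adjustment. In mature Rbfox2 tKO mTEC Krt76 was 84.4 and 86.9 CPM against 60.2 and 55.6 in controls, a log2 fold change of 0.56 (SE 0.12, adjusted p = 0.160), while in the Rbfox1 line it was 76.8 and 62.5 against 65.1 and 73.8. In the same comparison Krt5 had −0.30 (SE 0.09, adjusted p = 0.645) and Krt12 −1.35 (adjusted p = 0.859). In mature Rbfox1 tKO mTEC Krt15, a basal keratin, had 0.36, Krt90 had 0.75 and Krt83 had −0.43, each with adjusted p = 0.9996. In immature Rbfox1 tKO mTEC Krt4 had 1.62 (SE 0.53, adjusted p = 0.714), Krt84 had 1.12 and Krt19 had 0.51 (adjusted p = 0.730 for each). In immature Rbfox2 tKO mTEC Krt15 had 0.86 (adjusted p = 0.332), Krt75 had 1.79 (adjusted p = 0.602) and Krt10 had 0.66 (adjusted p = 0.669). With both lines together the lowest were Krt76 (0.28), Krt5 (−0.16) and Krt12 (−0.70) in mature mTEC, each with adjusted p = 0.9986, and in immature mTEC Krt4 (1.51, SE 0.36, adjusted p = 0.190), Krt19 (0.47, SE 0.12, adjusted p = 0.240) and Krt6b (1.06, adjusted p = 0.496). The leading genes lay near 0 with both lines together: Krt8 at −0.0022 (SE 0.06) and Krt14 at −0.12 in mature mTEC, and Krt8 at 0.057, Krt14 at 0.14, Krt5 at −0.065 and Krt18 at −0.015 in immature mTEC. A p that misses the threshold with 2 mice a group does not show that a keratin is the same in tKO and control mice.

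**Figure D5:**
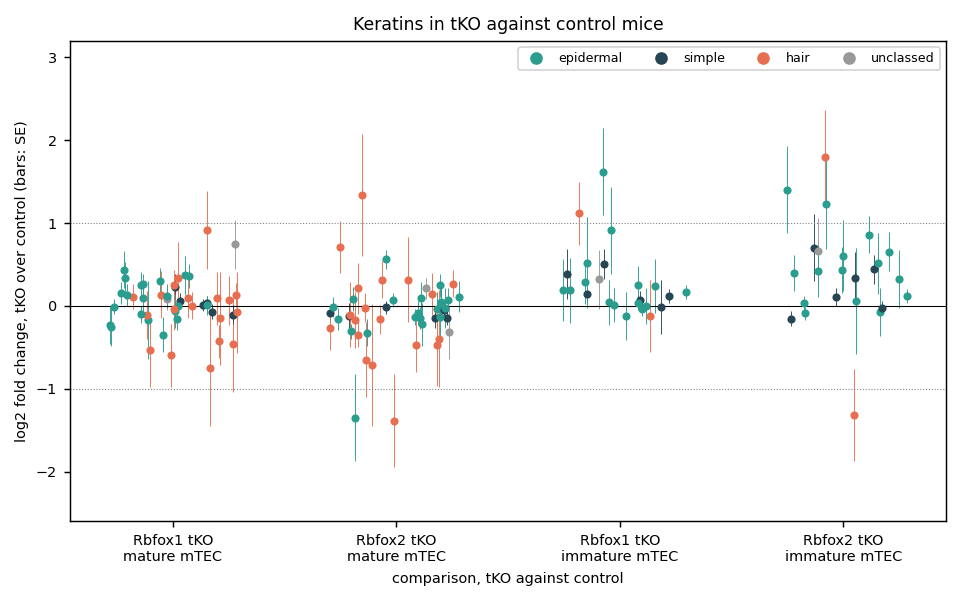
Log2 fold change of tested keratins (vertical axis, bars for the SE, 1 point per gene, coloured by class), tKO against control within each line and population. Dotted lines mark 2-fold, and no point passes the adjusted threshold.

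The 2 lines differ in their floxed gene, mice and depth, which cannot be told apart. No keratin was called between them with the fold threshold by edgeR or by DESeq2 (1.05% of rows in mature and 5% in immature mTEC were called). By adjusted p alone 11 of 48 keratins differed in mature mTEC (13.5% of rows) and 5 of 24 in immature mTEC (23.5% of rows). Krt14 was lower in the Rbfox1 line, with a log2 difference (Rbfox1 line minus Rbfox2 line) of −0.48 in mature (SE 0.07, adjusted p = 0.000119) and −0.62 in immature mTEC (SE 0.06, adjusted p = 1.06e-06). Krt5 gave −0.46 (adjusted p = 0.000227) and −0.39 (adjusted p = 7.72e-05). Krt5 in immature mTEC was 3217 to 3630 CPM in the Rbfox1 line and 4258 to 4813 in the Rbfox2 line, without overlap. The other immature genes were Krt19 (−0.61), Krt7 (−0.36) and Krt18 (−0.27), and the other mature ones Krt78 (−0.51), Krt1 (−0.73), Krt17 (−0.33), Krt79 (−0.52), Krt10 (−0.63), Krt7 (−0.27), Krt77 (−0.33) and Krt6a (−0.49), with Krt71 (0.55) alone higher in the Rbfox1 line. Fibroblast markers moved with the line in immature mTEC: 7 of 7 were called lower in the Rbfox1 line, summing to 359 to 726 CPM against 1891 to 2836 in the Rbfox2 line, none at 0. Endothelial markers summed to 28.0 to 73.0 against 69.8 to 223 CPM. Genes of the mTEC state moved with the line too: of 13 tested identity genes in immature mTEC, 2 were called higher in the Rbfox1 line, Aire (2.71 on the log2 scale, adjusted p = 4.88e-09) and Cd80 (1.74, adjusted p = 2.92e-05), 0 were called lower, and 9 differed by adjusted p alone, 5 higher and 4 lower. Pdpn was among those lower (−0.65), and 4 of 6 tuft cell markers were lower in the Rbfox1 line by adjusted p alone. In mature mTEC 0 identity genes were called and 4 differed by adjusted p alone, Aire by 0.995. The part of these markers in the keratin differences was not tested.

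These marker lists were also read between the populations, where 26.8% of all rows were called higher and 11.1% lower in mature control mTEC. In control mice 5 of 7 fibroblast markers were lower and 1 higher in mature mTEC (408 to 732 CPM summed in mature and 359 to 2836 in immature libraries of all mice), as were 3 of 4 tested endothelial markers lower (32.2 to 44.8 against 28.0 to 223 CPM) and 5 of 6 tuft cell markers lower (152 to 247.5 against 465 to 985 CPM). All 3 tested thymocyte markers were higher (45.6 to 58.3 against 3.44 to 23.4 CPM). Cortical markers gave 2 higher and 1 lower of 6, and corneocyte-like markers 1 higher and 1 lower of 7. Their part in the maturation of keratins was not tested.

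The proteins that anchor and regulate keratins were taken from lists of the same pathway, in mature against immature control mTEC, where 26.8% of all rows were called higher and 11.1% lower. Of 15 tested desmosome genes, which hold keratin filaments at cell contacts, 1 was higher (Dsg1b, 2.22 on the log2 scale) and 4 lower (Dsc3 −2.15, Pkp4 −1.72, Perp −1.56 among them), with a list median of −0.42 where that of all rows was 0.05. Of 9 plakin and hemidesmosome genes, which tie keratins to the basement membrane, 1 was higher (Col17a1, 1.23) and 4 lower (Cd151 −1.94, Itgb4 −1.41 and Dst −1.35 among them), with a median of −0.99. Of 18 regulators 6 were higher (Dlx3 2.92, Ovol1 2.28, Grhl3 2.23 among them) and 2 lower: Trp63, known as a factor needed for stratified epithelium (−2.03), and Grhl2 (−1.34). Of 14 other intermediate filament genes 6 were higher, led by the neuronal Prph (4.80), Nefm (3.45) and Nefh (3.44), and 2 were lower, Synm (−3.21) and the muscle gene Des (−1.02). Foxn1, whose locus carries the Cre, was higher in tKO mice by 0.68 in mature (adjusted p = 2.90e-06) and 0.79 in immature mTEC (adjusted p = 0.000291), below 2-fold.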

How the data were processed

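Poly(A) RNA of sorted mTEC was sequenced as stranded paired-end libraries. The authors deposited 1 table of raw counts per gene, made, by the submitters' processing notes, with HISAT2 2.1.0 on mm10, Picard 2.10.9 (duplicates removed) and featureCounts 1.6.0. They down-sampled reads to one number for mature and a lower one for immature libraries. No source used here gives the strand setting of the counting. The table has 53464 Ensembl genes and 35943 loci assembled by the authors, and all 89407 rows entered the fits.

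Counts were tested with edgeR 4.0.16 (quasi-likelihood, TMM, filterByExpr minimum count 10) in R 4.3.3, on all rows, with Benjamini-Hochberg adjustment. Calls needed an adjusted p under 0.05 and a log2 fold change over 1 in size (adjusted p alone for the difference of maturation effects). Each tKO comparison used the 8 libraries of its population and each maturation comparison the 8 of its genotype. DESeq2 1.42.0, other scalings, filters, blocks and each library left out were alternatives, and 2 more (within each line) were chosen after seeing the data. CPM used TMM-scaled library totals. Ratios were of counts plus 0.5, tested by exact permutation over mice. Scripts were tested on simulated data. The members and lists were chosen with earlier results of these data known. Named were Krt5, Krt14, Krt8 and Krt18, the 8 highest in each population, those called or of lowest p, and the 10 largest maturation changes in each direction.

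Same-numbered mature and immature libraries come from the same mouse, and their deviations from group means correlated at 0.0917 to 0.17 over all rows (0.058 to 0.1195 without X and Y). Between tKO and control mice a shared number does not name a shared litter, so no pairing was assumed. The study's methods name sex-matched littermates as controls. Within a line, same-numbered tKO and control mice were of the same sex, so a block on the number is also a block on sex.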

Additional observations from a re-analysis of the deposited data

Results flagged for a closer look

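For a sample far from the others 98 sets were screened: keratin values and shares in groups of 4 mice, and partner ratio differences over 8 mice. The screen found 3, all in groups of 4 mice, where chance gives about 1 in 20. Krt8 in mature tKO mTEC was 1599 CPM in Rbfox1 replicate 3 against 1816 to 1833 in the other mice. Krt6b in mature control mTEC was 31.49 CPM in Rbfox1 replicate 2 against 17.05 to 19.51. Krt6b in immature tKO mTEC was 24.27 CPM in Rbfox2 replicate 2 against 11.81 to 13.5, and 39.6% of the Krt6b windows are shared with other genes.

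The maturation effect differed between tKO and control mice for 2 keratins once the mouse was a block: Krt4 by −1.67 on the log2 scale (adjusted p = 0.000835) and Krt19 by −0.59 (adjusted p = 0.00177). Without the block neither passed (adjusted p = 0.448 and 0.573). What sets them apart was not tested.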

How the results depend on the processing

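The alternatives left most results where they were: 175 of 187 counts of called keratins and 1285 of 1329 fold changes of named keratins kept their side, their direction or stayed within 1.5 times. Requiring 10 counts in every library left 7 called keratins in control mice (20 keratins tested, Krt17 lost at −0.98) and 8 in tKO mice (Krt17 lost at −0.98, Krt75 gained at 1.05), since that filter removes the genes near 0. Leaving out 1 library gave 30 to 36 called in control and 25 to 35 in tKO mice. For the difference of maturation effects, no filter and the replicate block (mouse) each gave 2 keratins, and leaving out 1 library 0 to 1 (Krt4, without immature Rbfox1 tKO replicate 2). In immature mTEC no filter gave 1 for Rbfox2 tKO (Krt75) and 2 with both lines together (Krt6b, Krt4), and leaving out 1 library gave 0 to 1 for Rbfox2 tKO (Krt16, without Rbfox2 control replicate 2). Between the lines, no fold threshold gave 11 in mature and 5 in immature mTEC, a fit of all 16 libraries 1 in immature mTEC (Krt84) and leaving out 1 library 0 to 1 there (Krt84, without Rbfox2 control replicate 2). With the number as a replicate block, tKO against control called 0 keratins in all 6 comparisons. The within-line maturation counts, added after seeing the data, were 32 and 33 in control and 29 and 28 in tKO mice.

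The log2 fold change of Krt8 between mature and immature control mTEC turned above 0 and was 0.0501 with DESeq2 and with its size factors, 0.0645 with library totals, 0.0583 with no filter, 0.1577 with 10 counts everywhere, 0.0073 with Ensembl genes only and 0.039 in the Rbfox1 line, and −0.0312 to 0.0405 with 1 library left out (above 0 at 0.0088 and 0.0405). In tKO maturation it was 0.0039, 0.0144 and 0.0922 with library totals, no filter and 10 counts everywhere, and −0.1046 to 0.0173 with 1 library left out. In mature tKO against control it was 0.0005 with 10 counts everywhere and −0.0439 to 0.0294 with 1 library left out (above 0 from 0.0001, with 0.0036 and 0.0225 between), and Krt18 in immature mTEC was −0.0799 to 0.023 (above 0 at 0.0089, 0.0173 and 0.023). Krt19 was −0.1255 in the Rbfox2 line of control mice. With the 4 control mice alone, Krt8 over Krt18 differed by 0.7529 (exact permutation p = 0.125, the smallest 4 mice allow), Krt1 over Krt10 by −0.0822 and Krt6a over Krt16 by −0.3938. With 1 mouse left out these were 0.7306 to 0.7548, −0.0994 to 0.2304 and −0.6474 to −0.4662. The number of keratins detected was 54.0 (mature) and 37.0 (immature) without rarefaction and 43.0 and 23.68 at 5 counts or more. The cause of these shifts was not tested. Depth limits the immature libraries, where a gene at 0 may hold up to 3 counts.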
